A study of Homo sapiens
Mus musculus with 17 samples.

Results

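Nintedanib given alone was compared with vehicle in tumours that VM-CUB-1, a line of human bladder cancer cells, formed in athymic nude mice of the strain Hsd:Athymic Nude-Foxn1nu. All 5 libraries of tumours treated with nintedanib at 40 mg/kg for 7 days were set against all 4 libraries of tumours that received the vehicle, 0.5% methylcellulose with 0.1% Tween80, for 7 days. These are 9 of the 17 libraries of the study. The other 8 came from tumours given nintedanib at 40 mg/kg together with alpelisib at 25 mg/kg (4 libraries) and from tumours given alpelisib at 25 mg/kg alone (4 libraries), and these 8 were used as a second setting of nintedanib on another background. Alpelisib is an inhibitor of the alpha form of phosphoinositide 3-kinase. All 17 tumours were grown from the same cell line, which the submitters describe as resistant to nintedanib, although the source label of every sample calls the tissue a PDX. The sample titles split the nintedanib tumours into 3 responders and 2 non-responders, while the series text gives 2 and 3. The titles were followed. No label states that each tumour came from its own mouse, so a p-value measures only the spread between these samples. Each library was read against the human and the mouse genome separately. The human table is taken here for the tumour cells and the mouse table for the host cells, but separate mapping does not keep the species wholly apart. Over 15 keratin and other epithelial genes of the tumour, the mouse table summed to 63580 to 95550 normalized counts in nintedanib and 38250 to 67090 in vehicle libraries, with a median of 7.51 mouse reads for every 100 human reads. Genes averaging at least 10 normalized counts across all 17 libraries were tested, 14533 in the tumour cells and 11831 in the host cells.

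Nintedanib is a small molecule that inhibits the receptor tyrosine kinases of the VEGF, PDGF and FGF families. VEGF made by a tumour acts mainly through VEGF receptor 2 (Kdr) on the endothelial cells of the host's blood vessels, and the cells that lead a new sprout, the tip cells, make the Notch ligand Dll4, the peptide apelin, angiopoietin 2 and Esm1. PDGF receptors act in the pericytes that wrap vessels and in fibroblasts, and FGF receptors can act in both the tumour cells and the host. An athymic nude mouse lacks mature T cells but keeps macrophages, natural killer cells, mast cells and the cells of its vessels.

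Reads counted over genes numbered 11020767 to 22019507 per nintedanib library and 7429753 to 25654879 per vehicle library in the human table, and 3074305 to 7000102 and 2305198 to 6517101 in the mouse table. Vehicle 3 stood apart: it had the fewest human reads, and Rn45s and Lars2, whose annotations take up ribosomal RNA reads, held 72.9% of its mouse reads, against 1.73% to 28.1% in the other 8 libraries. Results that rest on Vehicle 3 are therefore given with and without it. The human cells had the keratins of a basal carcinoma: KRT5 averaged 98720 normalized counts in nintedanib and 68650 in vehicle tumours, and TP63, a transcription factor of basal epithelia, 3353 and 3192. Of the genes that define luminal urothelium, KRT20 and UPK3A had means under 10. Other luminal genes were read: of 15 listed, 12 averaged at least 10 normalized counts. Those 12 summed to 61300 to 117100 normalized counts in nintedanib and 45280 to 128800 in vehicle libraries. The host cells had endothelial, fibroblast and macrophage genes, with Pecam1 at 285 to 568 normalized counts in nintedanib and 593 to 1040 in vehicle tumours. Values below are normalized counts, which do not correct for gene length, so they are compared between libraries and not between genes.

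In the host cells 18 genes passed the test, 17 of them lower and 1 higher in nintedanib than in vehicle tumours (limma, Benjamini-Hochberg adjusted p under 0.05). These are 0.144% and 0.00845% of the genes tested. Among the 17 that fell were the VEGF receptor Flt4, the sprouting ligands Apln and Dll4, the endothelial genes Apold1, Mmrn2 and Pcdh12, Nes, Exoc3l and Trp53i11, the signalling genes Spry4, Epha2 and Sema3f, the channel genes Kcnj2 and Clca5, and the mitotic genes Prc1, Kif20a and Kif23. C1s, a protease of the complement system, was the gene that rose. The 5 nintedanib libraries lay wholly below the 4 vehicle libraries for 16 of the 17 genes, and Kif23 was the exception. Groups were apart in this direction for 1.52% of all genes tested. The 17 were picked by their p-values in these same libraries, so their separation is largely built in and is given as a description only. The number of genes that passed depended on single libraries: 8 passed without Responder 1, 4 without Vehicle 1 and 9 without Vehicle 2, while 33 passed when Alpelisib 1, which enters only the estimate of spread, was left out and 11 when Alpelisib 4 was. Clca5, Apold1, Trp53i11 and Epha2 passed in each of the 9 fits that left out a nintedanib or vehicle library, Nes, Flt4, Dll4 and Prc1 in 8, Kif20a in 6, Kcnj2 in 4, Pcdh12 in 3, Exoc3l, Kif23, Sema3f and C1s in 2, Spry4 and Apln in 1, and Mmrn2 in none. Without Vehicle 3, 11 of the 18 passed, and Apln, Kcnj2, Kif23, Mmrn2, Pcdh12, Sema3f and Spry4 did not.

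**Figure D1:**
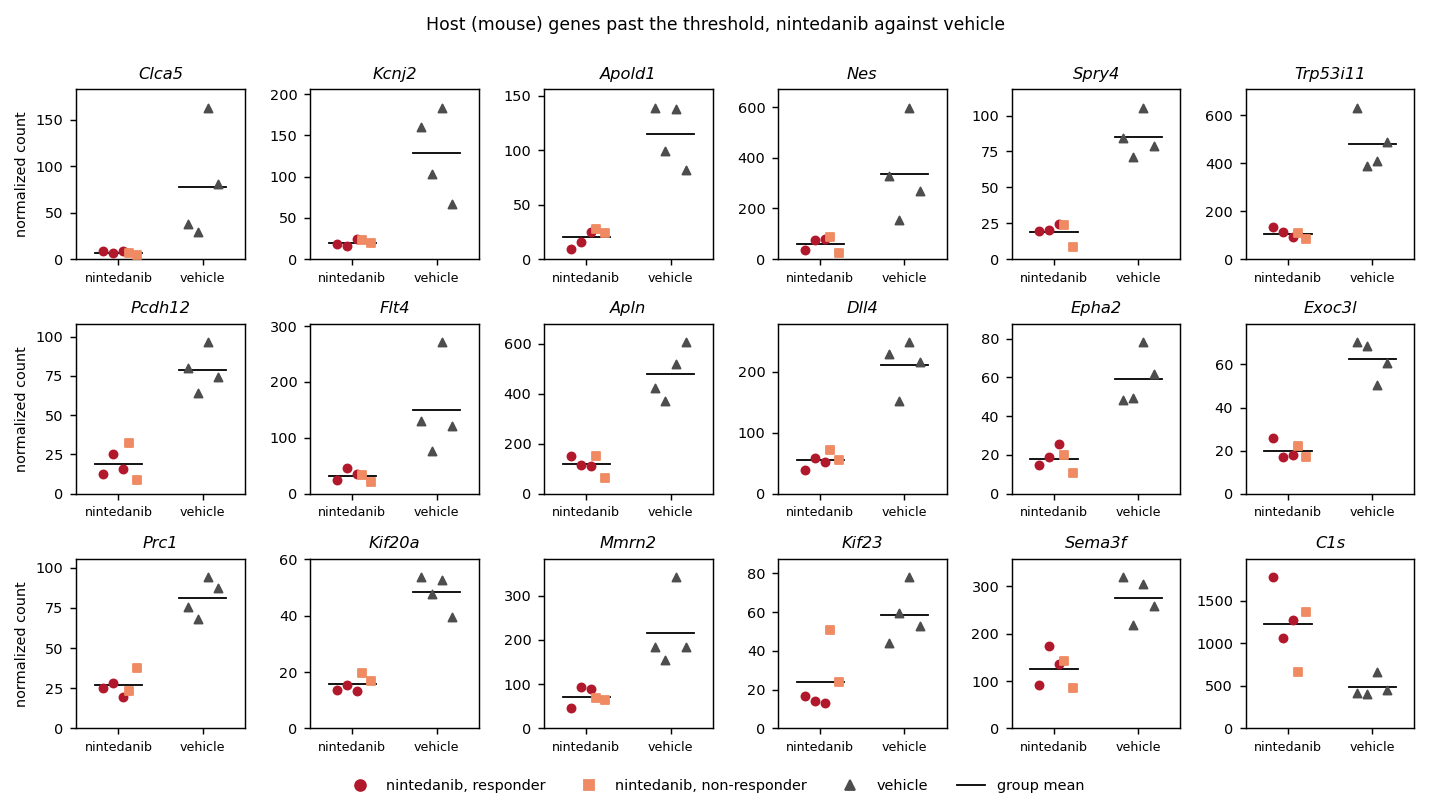
Normalized counts, on a linear axis, of the 18 host genes that passed the test, 1 panel a gene, with lines at the group means. The 5 nintedanib libraries are shown as circles (responders) and squares (non-responders), and the 4 vehicle libraries as triangles. The nintedanib points lie below all vehicle points for 16 of the 17 genes that fell, and for C1s the nintedanib mean is the higher.

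Apln and Dll4, both ligands made by sprouting vessels, fell. Apln, which encodes apelin, had 149.7, 117 and 109 normalized counts in the responder and 151 and 62.9 in the non-responder nintedanib tumours, against 423, 369.5, 519 and 606 in the vehicle tumours. The highest nintedanib library was below the lowest vehicle library and the log2 fold change was -2.05 ± 0.40 (SE, adjusted p = 0.0466). Reads of the human gene APLN, from the tumour cells, did not go the same way, at 0.82 ± 0.32, which did not pass. Dll4, the Notch ligand of tip cells, had 39.3, 57.9 and 52.2 normalized counts in the responder and 71.8 and 55.6 in the non-responder nintedanib tumours, against 229, 152, 248 and 215 in the vehicle tumours. The spread within each group was narrow and the groups were far apart, with a log2 fold change of -1.91 ± 0.30 and an adjusted p of 0.0113. Flt4, which encodes VEGF receptor 3, found on lymphatic vessels and on sprouting tip cells, had 25.1, 45.9 and 35.1 normalized counts in the responder and 33.4 and 20.6 in the non-responder nintedanib tumours, against 131, 76.2, 271 and 122 in the vehicle tumours. Vehicle 3 was the highest library, and the fold change of -2.09 ± 0.34 (adjusted p = 0.0113) was -1.76 without it (adjusted p = 0.0434).

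The other VEGF receptors did not pass. Flt1, VEGF receptor 1, had 63.7, 130.2 and 101 normalized counts in the responder and 80.4 and 81 in the non-responder nintedanib tumours, against 168, 135, 503 and 183 in the vehicle tumours, so the groups did not overlap, but Vehicle 3 lay far above the other vehicle tumours. Its log2 fold change was -1.26 ± 0.35 (adjusted p = 0.24), and -0.85 without Vehicle 3. Kdr, VEGF receptor 2 and the main receptor for VEGF on endothelium, had 63, 242 and 226 normalized counts in the responder and 171 and 79.8 in the non-responder nintedanib tumours, against 247, 239, 581 and 302 in the vehicle tumours. Responder 2 reached the level of the lower vehicle tumours, and the fold change was -1.22 ± 0.40 (adjusted p = 0.382). The co-receptors Nrp1 and Nrp2 were at -0.36 ± 0.27 and -0.27 ± 0.31. Of the 5 genes of VEGF receptors and neuropilins, 1 passed and all 5 had a fold change below 0, with a median of -1.22, against 0.02 for all host genes tested. Without Vehicle 3, 4 of the 5 were below 0 and the median was -0.85. Among the VEGF ligands in the mouse table none passed, and their median was 0.24 over 5 genes, with Vegfa at -0.04 ± 0.45. Of these 5 ligands, 4 had more human than mouse reads, with a median of 28.3 mouse reads for every 100 human reads. The part of carried-over human reads was not tested.

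Among the genes of the vessel wall that fell, Apold1, an early response gene of endothelial cells, had 9.48, 16.1 and 24.9 normalized counts in the responder and 27.2 and 24.2 in the non-responder nintedanib tumours, against 139, 99.7, 138 and 81.6 in the vehicle tumours. The log2 fold change was -2.49 ± 0.33 (adjusted p = 0.00269). Pcdh12, an endothelial protocadherin, had 12.9, 25.2 and 15.6 normalized counts in the responder and 32.2 and 8.47 in the non-responder nintedanib tumours, against 79.9, 64.1, 96.5 and 74.3 in the vehicle tumours, and fell by 2.13 ± 0.38 in log2 units (adjusted p = 0.027). Both genes separated the groups without overlap. Mmrn2, multimerin 2, a glycoprotein that endothelial cells deposit around themselves, had 45.4, 93.5 and 88.1 normalized counts in the responder and 69.3 and 64.1 in the non-responder nintedanib tumours, against 183, 155, 342 and 185 in the vehicle tumours, with a fold change of -1.55 ± 0.30 and an adjusted p of 0.0466. Vehicle 3 was the highest library here too, and the call was lost in every fit that left out a nintedanib or vehicle library. Nes, nestin, an intermediate filament protein of progenitor cells that growing vessels also make, had 35.9, 74.6 and 78.8 normalized counts in the responder and 85.4 and 24.2 in the non-responder nintedanib tumours, against 329, 154, 599 and 268 in the vehicle tumours. Its vehicle values spread over a wide range, yet the lowest stayed above every nintedanib library, and it fell by 2.47 ± 0.40 (adjusted p = 0.0113).

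Trp53i11, named as inducible by p53, showed one of the tightest separations, with 131, 113 and 93.6 normalized counts in the responder and 109 and 83.5 in the non-responder nintedanib tumours, against 631, 386, 406 and 488 in the vehicle tumours. It fell by 2.15 ± 0.29 in log2 units (adjusted p = 0.00269), so that nintedanib tumours averaged 106 ± 18.5 and vehicle tumours 478 ± 111 (SD, n = 5 and 4). Exoc3l, a relative of a subunit of the exocyst complex, had 25.7, 17.2 and 17.9 normalized counts in the responder and 22.3 and 16.9 in the non-responder nintedanib tumours, against 70.3, 68.6, 50.5 and 60.6 in the vehicle tumours and fell by 1.60 ± 0.30 (adjusted p = 0.0343). In both groups its libraries lay close together. Clca5, of the family of regulators of calcium-activated chloride channels, had the largest fold change of the 18, with 8.81, 6.31 and 8.58 normalized counts in the responder and 6.19 and 4.84 in the non-responder nintedanib tumours, against 37.2, 29.2, 163 and 80.7 in the vehicle tumours. The vehicle libraries spread widely, with Vehicle 3 the highest, and the fold change was -3.01 ± 0.39 (adjusted p = 0.00269). Kcnj2, an inward rectifier potassium channel, had 17.6, 15.5 and 24.2 normalized counts in the responder and 23.5 and 19.4 in the non-responder nintedanib tumours, against 159.9, 104, 184 and 66.6 in the vehicle tumours, with Vehicle 4 nearest to the nintedanib tumours. It fell by 2.54 ± 0.44 (adjusted p = 0.0205).

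Of the genes that act in or on receptor signalling, Spry4, a Sprouty protein that is switched on by receptor kinase signalling through ERK and restrains it, had 19.6, 20.1 and 24.2 normalized counts in the responder and 23.5 and 8.47 in the non-responder nintedanib tumours, against 84.1, 71.1, 106 and 78.9 in the vehicle tumours. Non-responder 2 was the lowest by a wide margin, the groups did not overlap, and the gene fell by 2.15 ± 0.42 in log2 units (adjusted p = 0.0466). It was the only one to pass of 21 tested feedback and immediate early genes of receptor kinase signalling, whose median was -0.19, and -0.10 without Vehicle 3. The others went both ways, and Ier3, an early response gene, was at 1.04 ± 0.33 (adjusted p = 0.342). Of the 21, 17 had more human than mouse reads, with a median of 24.6 mouse reads for every 100 human reads. Epha2, a receptor for ephrins, fell by 1.69 ± 0.27 (adjusted p = 0.0113), with 10.9 to 25.7 normalized counts in nintedanib and 48.2 to 78.1 in vehicle tumours. Sema3f, a secreted semaphorin that binds neuropilin 2, fell by 1.16 ± 0.22 (adjusted p = 0.0407), with 85.9 to 174 normalized counts in nintedanib and 218 to 319.8 in vehicle tumours. Neither gene's groups overlapped. Tumour cells also make both: over the 9 libraries Epha2 had 395 mouse and 14655 human reads, and Sema3f 2076 and 8689. That is 2.69 and 23.9 mouse reads for every 100 human reads. In the tumour cells EPHA2 and SEMA3F were at -0.08 ± 0.21 and -0.13 ± 0.22, which did not pass. How many reads of one species were assigned to the other genome was not tested.

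The host receptors for PDGF and FGF, which nintedanib also inhibits, did not pass. Pdgfra was at 0.46 ± 0.36, with 229 to 751 normalized counts in nintedanib and 174 to 679.7 in vehicle tumours. Pdgfrb was at 0.23 ± 0.28 (adjusted p = 0.745), with 291 to 969.5 normalized counts in nintedanib and 382 to 845 in vehicle tumours. The groups overlapped for both. Pdgfb, the ligand by which endothelial cells recruit pericytes, was at -0.61 ± 0.22 (adjusted p = 0.495). For Fgfr1, Fgfr2 and Fgfr3 the log2 fold changes were 0.41 ± 0.23, -0.50 ± 0.42 and -0.36 ± 0.53. Of the 4 FGF receptor genes tested, 3 had more human than mouse reads. The median was 25.4 mouse reads for every 100 human reads and the lowest 1.79. These values may therefore not be those of host cells alone, and the part of carried-over human reads was not tested.

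The endothelial genes as a group lay lower in nintedanib tumours. All 34 tested genes of endothelial identity had a log2 fold change below 0, where 48.1% of all host genes did, and their median was -0.71, and -0.79 without Vehicle 3. Of the 34, 20 had an unadjusted p under 0.05 in this direction, against 3.59% of all genes. In 15 the groups did not overlap, against 1.52% of all genes in this direction, and Mmrn2 alone passed. Summed over the list, the nintedanib libraries held 3378 to 5771 and the vehicle libraries 6612 to 9728 normalized counts, without overlap. In a bulk sample fewer endothelial cells and less of these RNAs per endothelial cell cannot be told apart. Cldn5, a tight junction protein of endothelium, had 54.9, 35.6 and 31.2 normalized counts in the responder and 59.4 and 39.9 in the non-responder nintedanib tumours, against 300.5, 163, 124 and 212 in the vehicle tumours. The groups were far apart and the fold change was -2.12 ± 0.44 (adjusted p = 0.07). Bcl6b, a transcription repressor, was at -1.97 ± 0.39 (adjusted p = 0.0532). Cdh5, VE-cadherin, was at -1.56 ± 0.33 (adjusted p = 0.0806), with 127 to 358 normalized counts in nintedanib and 389 to 1173 in vehicle tumours. The pan-endothelial Pecam1 was at -0.93 ± 0.25 (adjusted p = 0.236), a smaller difference than those of Apln or Dll4, although the difference between these genes was not tested.

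Of 19 tested tip cell genes, 3 passed (Apln, Dll4 and Flt4) and 16 had a fold change below 0, against 48.1% of all host genes. An unadjusted p under 0.05 in this direction was reached by 13, against 3.59% of all host genes, and the median was -0.75. Without Vehicle 3, 16 were below 0, 10 had such a p and the median was -0.80. Esm1, a proteoglycan of sprouting endothelium, had 44.7, 32.7 and 28.1 normalized counts in the responder and 26 and 15.7 in the non-responder nintedanib tumours, against 149, 117, 246 and 282 in the vehicle tumours. Every nintedanib library was below every vehicle library, yet the spread within the groups was wide and the fold change of -2.70 ± 0.64 did not pass (adjusted p = 0.131). Kcne3, a potassium channel subunit, had 25.1, 24.1 and 21.1 normalized counts in the responder and 45.8 and 15.7 in the non-responder nintedanib tumours, against 158, 122, 110.2 and 148 in the vehicle tumours, likewise without overlap, with a fold change of -2.38 ± 0.53 (adjusted p = 0.096). Angpt2, angiopoietin 2, which loosens vessels by acting on the Tie2 receptor, had 123, 119 and 67.8 normalized counts in the responder and 82.9 and 59.3 in the non-responder nintedanib tumours, against 262, 121, 367 and 300 in the vehicle tumours. Vehicle 2 lay just under the highest nintedanib library, and the fold change was -1.48 ± 0.33 (adjusted p = 0.0953). Its receptor Tek was at -0.47 ± 0.30, and Tie1, the second Tie receptor, at -1.26 ± 0.27 (adjusted p = 0.0865) with 64.1 to 179.6 normalized counts in nintedanib and 223 to 326 in vehicle tumours.

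Within the Notch pathway, 13 genes were tested and Dll4 was the one that passed. Notch4, an endothelial Notch receptor, had 71.8, 116 and 139.6 normalized counts in the responder and 121 and 68.9 in the non-responder nintedanib tumours, against 278, 255, 324 and 219.8 in the vehicle tumours, without overlap between groups, and a fold change of -1.41 ± 0.29 (adjusted p = 0.0617). The ligand Jag2 was at -0.93 ± 0.32 and Lfng, which modifies Notch receptors, at 0.65 ± 0.28. The Notch targets Hes1 and Hey1 were at 0.10 ± 0.23 and -0.61 ± 0.34. The median over the 13 was -0.15, and -0.31 without Vehicle 3. Of the 13, 9 had more human than mouse reads, with a median of 21.4 mouse reads for every 100 human reads.

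Of 13 basement membrane genes none passed and 11 were below 0, against 48.1% of all host genes. The median of -0.69 was -0.24 without Vehicle 3. Col4a1, a chain of type IV collagen, had 1506, 2448 and 1897 normalized counts in the responder and 1608 and 1198 in the non-responder nintedanib tumours, against 2894, 2602, 7626 and 2751 in the vehicle tumours. Vehicle 3 lay far above the other vehicle tumours, and the fold change of -1.08 ± 0.29 was -0.71 without it. Nid2, nidogen 2, was at -1.97 ± 0.43 (adjusted p = 0.0953), and -1.45 without Vehicle 3, with 51.5 to 128 normalized counts in nintedanib and 178 to 946 in vehicle tumours. Of 14 genes of pericytes and smooth muscle none passed, and their median was -0.15, and -0.05 without Vehicle 3. In that list Mcam, an adhesion molecule that endothelial cells also make, was at -1.25 ± 0.31 and Rgs5, a pericyte marker, at -0.08 ± 0.44. Of 6 tested lymphatic genes only Flt4 passed, and the median of -0.74 was -0.22 without Vehicle 3. Ccl21a, a chemokine of lymphatic vessels with near-identical gene copies, was listed at 0 in all 9 libraries, and Prox1, their defining transcription factor, had a mean under 10. Of 19 fibroblast and fibrillar matrix genes none passed, with a median of 0.24, and 0.51 without Vehicle 3.

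**Figure D2:**
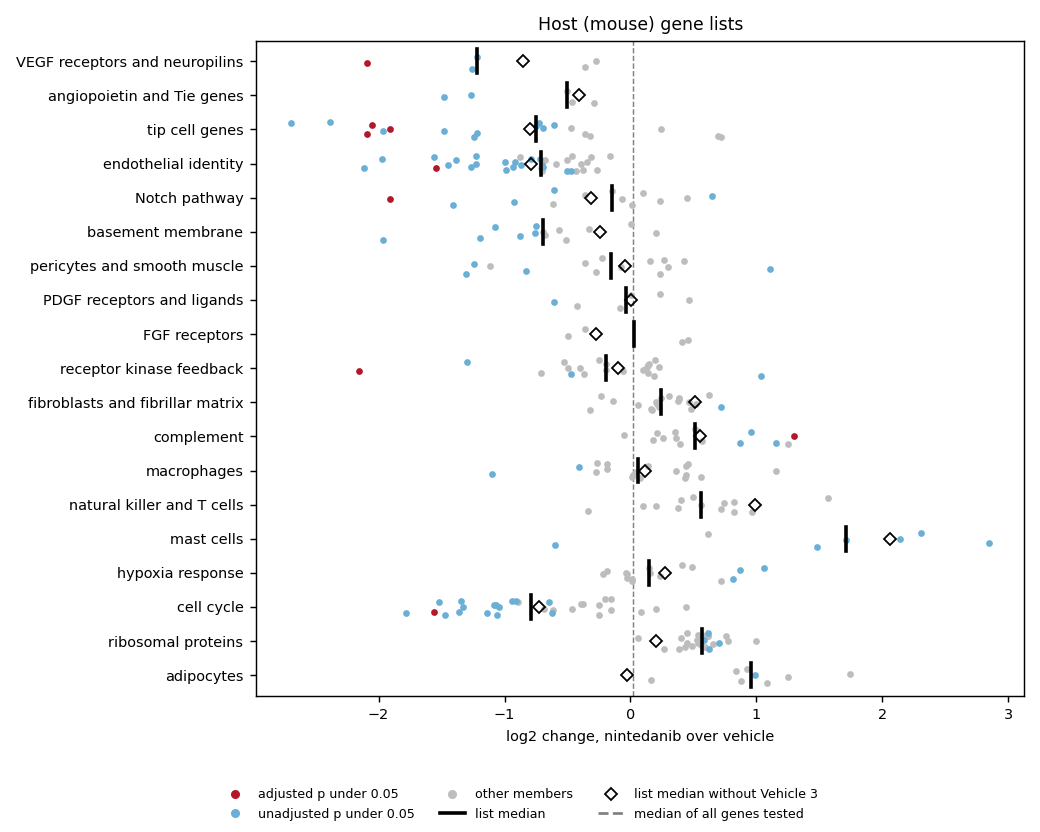
Log2 fold changes, nintedanib against vehicle, of the tested members of 19 host gene lists, 1 point a gene, with each list's median as a line, its median without Vehicle 3 as a diamond and the median of all host genes tested as a dashed line. All 34 endothelial genes lie below 0, with a median of -0.71, while the fibroblast genes have a median of 0.24.

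The 3 mitotic genes that fell act at the end of cell division. Prc1, which bundles the microtubules of the dividing spindle, had 25.1, 28.1 and 19.5 normalized counts in the responder and 23.5 and 37.5 in the non-responder nintedanib tumours, against 75.8, 67.9, 94.2 and 87.5 in the vehicle tumours and fell by 1.59 ± 0.25 in log2 units (adjusted p = 0.0113). Kif20a, a kinesin needed for cytokinesis, had 13.6, 15.5 and 13.3 normalized counts in the responder and 19.8 and 16.9 in the non-responder nintedanib tumours, against 53.8, 47.6, 52.8 and 39.7 in the vehicle tumours and fell by 1.56 ± 0.25 (adjusted p = 0.0113). Both groups were tight and did not overlap. Kif23, a kinesin of the central spindle, had 16.9, 14.3 and 13.3 normalized counts in the responder and 50.7 and 24.2 in the non-responder nintedanib tumours, against 44.1, 59.7, 78.1 and 52.9 in the vehicle tumours. Non-responder 1 lay above Vehicle 1, so the groups overlapped, and it fell by 1.41 ± 0.26 (adjusted p = 0.0309). The human genes had far more reads: over the 9 libraries Prc1 had 556 mouse and 17173 human reads, Kif20a 318 and 7510, and Kif23 404 and 5834. In the tumour cells PRC1 was at -0.58 ± 0.23, which did not pass. Of 30 host cell cycle genes tested, 1 passed (Kif20a), 27 were below 0, as were 48.1% of all host genes, and 16 had an unadjusted p under 0.05 in this direction, as had 3.59%, with a median of -0.79. All 30 had more human than mouse reads, with a median of 7.94 mouse reads for every 100 human reads, close to the 7.51 of the epithelial genes. Prc1 had 3.24, Kif20a 4.23 and Kif23 6.92 mouse reads for every 100 human reads, so these values may not be those of host cells, and the part of carried-over human reads was not tested. Among those that did not pass, Cenpf, a kinetochore protein, was at -1.78 ± 0.50, Mki67 at -1.47 ± 0.43 and Tpx2, a spindle factor, at -1.34 ± 0.37.

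C1s encodes a protease of the first complement component. It had 1779, 1066 and 1275 normalized counts in the responder and 661 and 1363 in the non-responder nintedanib tumours, against 422, 399, 668 and 451 in the vehicle tumours. Non-responder 1 lay just under Vehicle 3, and the other nintedanib libraries were above every vehicle library. The log2 fold change was 1.30 ± 0.25 (adjusted p = 0.0466). The call held with both other pseudocounts and in DESeq2, which are 3 of 11 other settings, with adjusted p-values up to 0.228 over the 11, and in 2 of the 9 fits that left out a nintedanib or vehicle library. The human gene had 33942 reads against 9998 mouse reads over the 9 libraries, and C1S in the tumour cells was at 0.33 ± 0.37, which did not pass. Of 15 tested complement genes 14 had a fold change above 0, where 48.1% of all host genes were below 0, with a median of 0.51. Without Vehicle 3, 11 of the 15 were above 0 and the median was 0.56. C1ra, the partner protease of C1s, was at 1.15 ± 0.36 (adjusted p = 0.338), Cfp, properdin, at 0.96 ± 0.34 and Serping1, the inhibitor of both proteases, at 0.87 ± 0.38. In the combination against alpelisib, C1s was at -0.09 ± 0.27.

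Other host cells were read from their markers, none of which passed. Of 18 macrophage genes 12 were above 0, where 48.1% of all host genes were below 0. The median was 0.06, and 0.11 without Vehicle 3. Of the surface markers, Cd14 was at 0.56 ± 0.33, Cd68 at 0.46 ± 0.22 and Emr1, which encodes F4/80, at -0.41 ± 0.18. Cx3cr1, a chemokine receptor of monocytes and macrophages, had 256, 386 and 365 normalized counts in the responder and 426 and 136 in the non-responder nintedanib tumours, against 783, 891, 478 and 461 in the vehicle tumours. Every nintedanib library lay below every vehicle library, at -1.10 ± 0.33 (adjusted p = 0.308). Of 13 genes of natural killer and T cells 12 were above 0, with a median of 0.56, and 0.99 without Vehicle 3. None of the 13 had an unadjusted p under 0.05 in limma in either direction. In the combination against alpelisib 9 of the 13 were below 0, where 48.4% of all host genes were. Their median there was -0.20, and 0.35 without Alpelisib 1. Gzma, a granzyme, spread over both groups, with 222, 9.75 and 42.9 normalized counts in the responder and 17.3 and 294 in the non-responder nintedanib tumours, against 11, 8.25, 29.9 and 36.5 in the vehicle tumours.

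Mast cell genes had the highest list median among host cells. Of 7 genes 6 were above 0 and 5 had an unadjusted p under 0.05 in this direction, where 4.88% of all genes did, with a median of 1.71. That median was 0.86 without Vehicle 2, 2.06 without Vehicle 3, and 0.01 over the mast cell genes averaging 50 normalized counts or more. Tpsb2, a mast cell tryptase, had 37.9, 37.3 and 71 normalized counts in the responder and 14.8 and 41.1 in the non-responder nintedanib tumours, against 16.5, 0.635, 0 and 23.7 in the vehicle tumours. Vehicle 2 and Vehicle 3 were at or near 0, Non-responder 1 lay within the vehicle range, and the fold change of 2.85 ± 0.78 did not pass (adjusted p = 0.236). Cpa3, a mast cell carboxypeptidase, was at 1.71 ± 0.69, and Kit, the receptor that mast cells need, at -0.60 ± 0.27. Over the 9 libraries Tpsb2 had 323 reads.

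Genes of fat and muscle varied from tumour to tumour within both groups. Cfd, adipsin, a protein of fat cells, had 0.677, 10.3 and 158 normalized counts in the responder and 1100 and 1384 in the non-responder nintedanib tumours, against 75.8, 192, 0 and 112 in the vehicle tumours, and Adipoq, adiponectin, 0, 5.16 and 27.3 normalized counts in the responder and 246 and 287 in the non-responder nintedanib tumours, against 15.2, 46.4, 0 and 29.6 in the vehicle tumours. Both non-responders were high and Responder 1 and Vehicle 3 were at or near 0. Ckm, muscle creatine kinase, had 5.42, 2.87 and 12.5 normalized counts in the responder and 5727 and 4.84 in the non-responder nintedanib tumours, against 1446, 29.8, 0 and 168 in the vehicle tumours, so that 2 tumours, Non-responder 1 and Vehicle 1, held most of it. The median fold change of 14 skeletal muscle genes was -1.24, and -2.39 without Vehicle 3. Their sum ran from 824.8 to 44140 normalized counts in nintedanib and from 1180 to 14130 in vehicle tumours. The median fold change of the adipocyte genes was 0.96, and -0.03 without Vehicle 3. In the hypoxia list, Bnip3, a mitochondrial target of hypoxia signalling, had 669, 256 and 339 normalized counts in the responder and 309 and 296 in the non-responder nintedanib tumours, against 215, 130.2, 246 and 227 in the vehicle tumours. Every nintedanib library was above every vehicle library, as for 0.93% of all host genes, but the fold change of 0.82 ± 0.30 did not pass (adjusted p = 0.474). The list's median over 16 genes was 0.15, and 0.28 without Vehicle 3. Of the 15 with a human gene of the same name, 14 had more human than mouse reads. The median was 13.3 mouse reads for every 100 human reads, and the lowest 1.68. The hypoxia values may therefore not be those of host cells alone, and the part of carried-over human reads was not tested.

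Tumours given the combination and tumours given alpelisib alone share no library with the comparison above. The fold changes and overlaps of the same 17 genes there therefore come from other libraries. Their p-values are not separate, since 1 spread per gene over all 17 libraries served both tests and helped to pick these genes. The count of genes with a low p-value below is given as a description only. All 17 had a fold change below 0 in the combination against alpelisib, where 48.4% of all host genes did. Of these, 15 had an unadjusted p under 0.05 (3.65% of all genes in this direction), 10 had groups that did not overlap (2.14%), and none passed after adjustment over all genes, of which 1, an unnamed gene model outside the 17, did (0.00845%). The median was -1.29, against -2.05 in nintedanib alone against vehicle. Within the alpelisib group 1 library stood apart: Alpelisib 1 was below the other 3 alpelisib libraries for 15 of the 17 genes, where 29.4% of all genes were, and below all 4 vehicle libraries for 14 (20.2% of all genes). Apln, for example, had 119.8, 52.3, 86.1 and 72.3 normalized counts in the combination and 112, 616, 487 and 439 in the alpelisib tumours 1 to 4, and Dll4 70.6, 99.6, 83.7 and 63.6 in the combination and 79.4, 232, 264 and 249 in the alpelisib tumours. Of the alpelisib tumours, Alpelisib 1 was the one that lay near the combination for both genes. Clca5 and Flt4 were the genes for which it was not the lowest. They had 46.7 and 149 normalized counts in Alpelisib 1, against at most 8.81 and 45.9 in the nintedanib libraries. Alpelisib 1 also had the fewest mouse reads of the 17 libraries, 2271764. The library was kept as labelled. Why it was low for these genes, and whether its label is right, was not tested. Every value of the combination against alpelisib that includes this library depends on it.

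Alpelisib 1 was also left out, a choice made after seeing that it was low for these same genes. The higher counts that follow are built into that choice, are given as a description only, and cannot be read against the shares of all genes beside them. Without it, all 17 genes were again below 0 (47.2% of all genes), with a median of -1.50, 16 had an unadjusted p under 0.05 (3.52% of all genes in this direction) and all 17 had groups that did not overlap (4.46% of all genes). In this fit 13 host genes passed, all of them lower (0.11%), and 6 were among the 17, namely Apln, Apold1, Dll4, Exoc3l, Spry4 and Trp53i11. Apln was at -2.67 ± 0.31 (adjusted p = 0.00146) and Trp53i11 at -1.88 ± 0.25 (adjusted p = 0.0024). Another 3 of the 13, Esm1, Kcne3 and Notch4, are genes that had non-overlapping groups but did not pass in nintedanib alone. Whether nintedanib acted differently with and without alpelisib was tested as an interaction in limma: no host gene passed, with 571 at an unadjusted p under 0.05 (4.83%). Over the lists, the endothelial genes had a median of -0.77 in the combination against alpelisib and -1.08 without Alpelisib 1, and the tip cell genes -0.82 and -1.07.

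**Figure D3:**
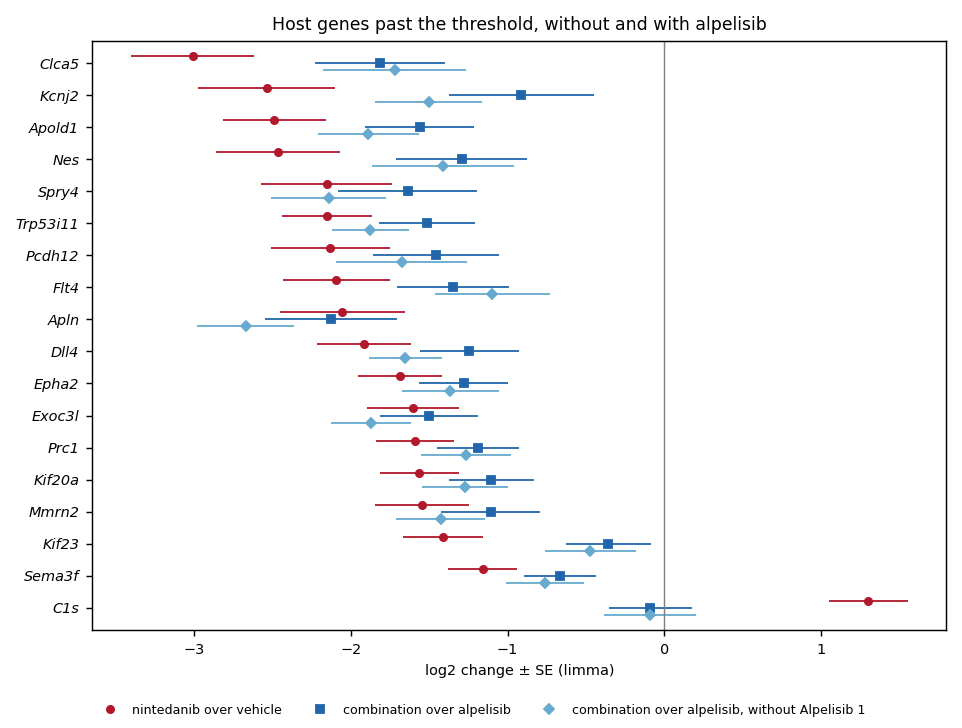
Log2 fold changes ± SE of the 18 host genes for nintedanib against vehicle, for the combination against alpelisib, and for the combination against alpelisib without Alpelisib 1. The 17 genes that fell lie below 0 in all 3 readings, while C1s is above 0 in the first and near 0 in the second.

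**Figure D4:**
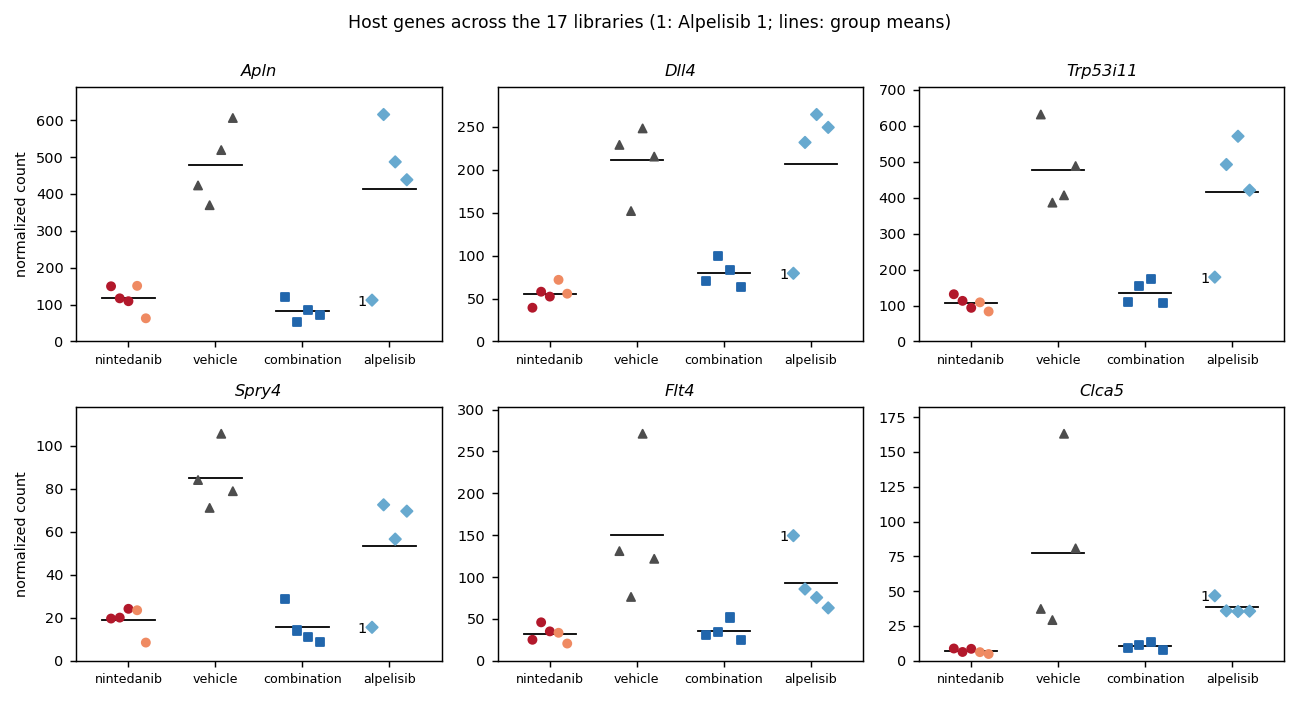
Normalized counts, on a linear axis, of Apln, Dll4, Trp53i11, Spry4, Flt4 and Clca5 in all 17 libraries. The nintedanib tumours stand next to the vehicle tumours and the combination next to alpelisib. The mark 1 shows the library Alpelisib 1, which lies below the other alpelisib tumours for the first 4 of these genes.

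In the tumour cells no gene passed the test (limma, 0 of 14533), and edgeR and voom called none either. At an unadjusted p under 0.05, 743 genes were higher (5.11%) and 292 lower (2.01%) in nintedanib tumours. DESeq2 called 13, all higher, with adjusted p-values for 1008 genes: KRTDAP, SPRR1B, KRT10, MT1X, MT2A, IGFL1, CCL5, S100A10, IFITM3, RPS12, TXN, ACTG1 and ACTB. The 6 highest and 6 lowest fold changes among genes at an unadjusted p under 0.01 with a mean of at least 50 in either group are given as values that did not pass, each with an adjusted p of 0.619.

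Of the 6 highest, all but TNNT1 were genes of the outer layers of squamous epithelium. SLURP1, a secreted protein of keratinocytes, had 492, 212 and 316 normalized counts in the responder and 84.4 and 490.3 in the non-responder nintedanib tumours, against 28.7, 42.4, 22.1 and 166 in the vehicle tumours. KRTDAP, a protein of differentiating keratinocytes, had 16140, 3844 and 11750 normalized counts in the responder and 1594 and 13290 in the non-responder nintedanib tumours, against 1278, 1061, 1284 and 3368 in the vehicle tumours. In both, Non-responder 1 lay within the vehicle range and Vehicle 4 was the highest vehicle tumour, and the fold changes were 2.51 ± 0.57 and 2.14 ± 0.52. The cornified envelope genes SPRR2G, SPRR2D and SPRR2E were at 2.14 ± 0.74, 1.93 ± 0.55 and 1.79 ± 0.60. They are close copies of one another, so reads may be split among them. TNNT1, a troponin of slow muscle, was at 1.74 ± 0.48. Of 29 tested squamous differentiation genes none passed and 25 were above 0, where 50.2% of all tumour genes were below 0. An unadjusted p under 0.05 in this direction was reached by 17, against 5.11% of all tumour genes. Their median was 1.18, and 1.29 without Vehicle 3. None of the 29 had groups that did not overlap, where 0.819% of all tumour genes were apart and higher and 0.509% apart and lower. KRT10, a keratin of suprabasal cells, had 4957, 2079 and 3580 normalized counts in the responder and 1901 and 4773 in the non-responder nintedanib tumours, against 1307, 1253, 1280 and 2607 in the vehicle tumours, at 1.06 ± 0.29. KRT13 and CRNN, of the lining of the mouth and gullet, were at -0.47 ± 0.39 and -0.42 ± 0.60. In the combination against alpelisib the median of the squamous list was 0.07.

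Of the lowest, PIGR, which carries antibodies across epithelia, had 134, 238 and 240.3 normalized counts in the responder and 914 and 137 in the non-responder nintedanib tumours, against 1446, 1426, 465 and 870.4 in the vehicle tumours. Non-responder 1 lay among the vehicle libraries, and the fold change was -1.93 ± 0.43. Without that library PIGR was the single tumour gene to pass. CEL, a lipase, had 29.6, 15.2 and 35.3 normalized counts in the responder and 23.8 and 21.4 in the non-responder nintedanib tumours, against 153, 86, 52.2 and 42.8 in the vehicle tumours, with no overlap, at -1.57 ± 0.40. MUC4, a membrane mucin, and CCR7, a chemokine receptor, also had groups that did not overlap, at -1.12 ± 0.31 and -1.10 ± 0.27, where 0.509% of tumour genes were apart in this direction. MUC4 had 441, 1164 and 1074 normalized counts in the responder and 1254 and 517 in the non-responder nintedanib tumours, against 1640, 1809, 2473 and 1327 in the vehicle tumours. RTKN2 was at -1.34 ± 0.44 and MECOM, a transcription factor, at -1.09 ± 0.37.

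The receptors that nintedanib inhibits in tumour cells did not pass. FGFR3, an FGF receptor often active in bladder cancer, had 6725, 4070 and 5943 normalized counts in the responder and 5351 and 7902 in the non-responder nintedanib tumours, against 5411, 5248, 3701 and 7239 in the vehicle tumours, with full overlap and a fold change of 0.16 ± 0.24 (adjusted p = 0.795). FGFR1 and FGFR2 were at 0.14 ± 0.22 and -0.25 ± 0.26. Over 10 genes of FGF receptors and ligands the median was 0.16, 18 genes of ERK output, which FGF receptors feed, had one of 0.17, and 20 FOXO targets had one of -0.22. Without Vehicle 3 these medians were 0.04, 0.14 and -0.11. Of 17 angiogenic ligands made by the tumour cells none passed, VEGFA was at -0.07 ± 0.42 and VEGFC, a ligand of Flt4, at 0.97 ± 0.43. AXL, a receptor kinase, was at 0.92 ± 0.30. Of 30 cell cycle genes none passed and 23 were below 0 (50.2% of all tumour genes), with a median of -0.28. In this direction 7 had an unadjusted p under 0.05 (2.01% of all tumour genes). Without Vehicle 3, 28 were below 0, 3 had such a p, and the median was -0.35. TOP2A and MKI67 were at -0.98 ± 0.39 and -0.71 ± 0.33.

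Of 19 basal urothelial genes none passed and 18 were above 0, where 50.2% of all tumour genes were below 0. Their median was 0.52, and 0.73 without Vehicle 3. KRT6B and KRT16, keratins of stressed and hyperproliferative epithelium, were at 1.51 ± 0.54 and 1.27 ± 0.44. Over 12 luminal genes the median was 0.06, and -0.14 without Vehicle 3. All 25 ribosomal protein genes were above 0, with a median of 0.67. Of them 10 had an unadjusted p under 0.05, against 5.11% of all tumour genes in this direction. Without Vehicle 3, 3 had such a p, against 472 of all 14533 tumour genes, and the median was 0.33. ISG15 and IFI27, interferon-induced genes, were at 0.97 ± 0.42 and 0.97 ± 0.41, and at 0.49 and 0.39 without Vehicle 3. CSF1, the growth factor of macrophages, was higher in every nintedanib than in any vehicle tumour, with 348, 316 and 344 normalized counts in the responder and 292 and 286 in the non-responder nintedanib tumours, against 175, 225, 275 and 276 in the vehicle tumours, at 0.43 ± 0.24, where 0.819% of tumour genes were apart in this direction. The medians of the hypoxia, glycolysis and sterol synthesis lists were 0.19, 0.21 and -0.10, and without Vehicle 3 they were 0.37, 0.19 and 0.05.

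**Figure D5:**
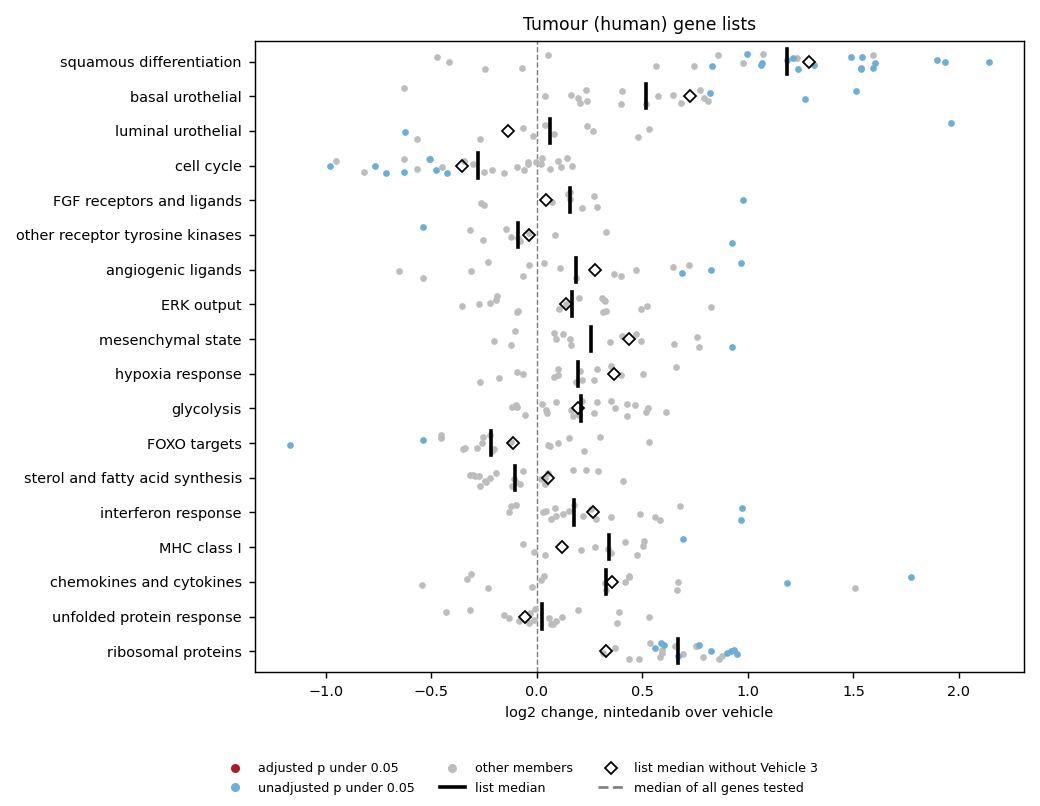
Log2 fold changes, nintedanib against vehicle, of the tested members of 18 tumour gene lists, 1 point a gene, with each list's median as a line, its median without Vehicle 3 as a diamond and the median of all tumour genes tested as a dashed line. The squamous differentiation genes have the highest median, 1.18, and the cell cycle genes the lowest, -0.28.

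Responders and non-responders, as the titles name them, were compared within the nintedanib group. No gene passed in the host cells (limma, 0 of 11831, with 242 or 2.05% at an unadjusted p under 0.05) or in the tumour cells (0 of 14533, with 237 or 1.63%). In the host cells edgeR called 0, voom 1 and DESeq2 2, and in the tumour cells all 3 called 0. The 17 genes that fell were below vehicle in both kinds of tumour. For Dll4 the fold change against vehicle was -2.05 ± 0.34 in responders and -1.70 ± 0.39 in non-responders, and for Apln -1.92 ± 0.45 and -2.26 ± 0.52. Against vehicle 7 genes passed in responders alone (0.0592%, all lower) and none in non-responders alone, where 388 lower genes had an unadjusted p under 0.05 (3.28%) and the group has 1 library fewer. Kif23 had the lowest unadjusted p of the 18 between responders and non-responders, at -1.19 ± 0.35 (adjusted p = 1).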

How the data were processed

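Polyadenylated RNA of 17 xenografts was made into libraries with the TruSeq v2 kit and sequenced as 75-bp read pairs on a NextSeq500, per the labels' protocols. The submitters mapped the reads to each genome, human and mouse, on its own, per the series text. Bowtie, TopHat and DESeq2, with the builds hg19 and mm10, are named without versions in the submitters' processing notes. The counter, the annotation and whether counting used strand are not given in the sources used here, so reads of overlapping genes may be shared. The deposited values are a normalized count signal per gene, which the authors made by dividing read counts by 1 size factor per library. Multiplied back, 100% of values came out whole within 0.001. These whole reads were used for depth and for the alternative count tests.

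The test was limma 3.58.1 in R 4.3.3 on log2(value + 1) for genes averaging 10 or more normalized counts. It had 5 group means over all 17 libraries, a mean-variance trend and Benjamini-Hochberg adjustment over all genes of a table. A fold change is the mean of the 5 nintedanib libraries minus the mean of the 4 vehicle libraries on that scale, which understates changes of low genes, and errors are standard errors. The procedure was tested on simulated data. Alternatives were TMM scaling, other pseudocounts and filters, edgeR 4.0.16, voom, DESeq2 1.42.0, a replicate block, a ribosomal RNA covariate and leaving out each library.

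Named genes were every host gene past the threshold, the receptors nintedanib inhibits, up to 4 members of each list with the smallest p, and in the tumour cells the 6 highest and 6 lowest changes. The comparison, its gene lists and this rule were chosen with earlier results of these data known. Further members of the lists, such as Pecam1, Kit and VEGFA, were named as markers, and the leading genes beside them after their values were seen.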

Additional observations from a re-analysis of the deposited data

Results flagged for a closer look

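Among the 98 genes given with values, a library of a treatment group lay far from the others of its group in 10 of 196 sets of values. That is about 1 in 20, the share that chance gives for independent sets. These genes were picked and share the same libraries, so that share cannot be used as a yardstick. Vehicle 3 held 5 of the 10 and Vehicle 4 held 3. The 10 are listed as a description only. The measure is the gap of the extreme library to its nearest neighbour as a percentage of the group's whole range, on the log2 scale. Non-responder 2 was far below the other nintedanib tumours for Spry4 (79.7%), and Non-responder 1 far above them for Ckm (82.9%). Vehicle 3 was apart from the other vehicle tumours for Col4a1 (90.1%), Cenpf (85.7%), Cd68 (88.1%), Lfng (93.5%) and, in the tumour cells, IFI27 (89.1%). Vehicle 4 was above the other vehicle tumours for KRT10 (94.3%), KRTDAP (83.5%) and CCR7 (84.1%).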

How the results depend on the processing

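The 18 host genes that passed for nintedanib against vehicle became 10 with no filter on low values, 7 with a minimum mean of 50, 93 in DESeq2 (73 lower and 20 higher), 7 with responders alone and 0 with non-responders alone. Leaving out 1 nintedanib or vehicle library gave 4 to 26, and leaving out a combination or alpelisib library, an alternative added after seeing the data, gave 11 to 33. Of same-numbered pairs, 7 of 29 in the human table and 5 of 29 in the mouse table correlated above 0.1. Of different-numbered pairs, 33 of 85 and 30 of 85 did. The 5 same-numbered pairs of nintedanib and vehicle ran from -0.28 to 0.38 in the human table and from 0.04 to 0.39 in the mouse table. Values were first centred within each group, which ties its libraries to each other. These correlations therefore cannot settle whether the replicate numbers pair the libraries. With the replicate number as a block 10 host genes passed for nintedanib against vehicle and 0 for the combination against alpelisib. In the tumour cells the count of 0 became 13 in DESeq2 and ranged from 0 to 1 when a library was left out. For the combination against alpelisib the single host gene became 0 with a minimum mean of 50, in edgeR, in voom, with the compared groups alone and with the ribosomal RNA covariate, 22 in DESeq2, and 0 to 13 when a library was left out. Responders against non-responders gave 1 host gene in voom and 2 in DESeq2 in place of 0. The cause was not tested. Each of the 18 genes kept its direction under every alternative in which it was tested, and with a minimum mean of 50 only 10 of them were. Of 532 repeats, 356 kept the call and 176 lost it.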
